A study of Mus musculus with 72 samples.

Results

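This section describes 12 of the series' 72 arrays: bone marrow from mice with acute promyelocytic leukaemia (APL) carrying PML/RARA as a transgene, labelled 12H, either treated with retinoic acid (RA, 8 arrays) or untreated (4 arrays). The arrays were chosen by their labels for model, fusion protein and time, and no measured value was used. All 12 carry the background label WT and batch 1. The promoter of the transgene, the dose and route of RA and the age of the mice are not in the labels. Nor do they say if each array stands for its own mouse or leukaemia, so p-values measure a spread between arrays that may be technical. That spread was pooled within the groups of all 36 transgenic arrays and not taken from these 12 alone. The series profiled mouse APL with a transgenic and a viral model, 36 arrays each, on Affymetrix Mouse Gene 1.0 ST arrays. Its title concerns PML bodies, p53 and the cure of this leukaemia by therapy. For comparison, transgenic PML/RARA marrow at 6 h (8 RA and 4 untreated arrays, batches 1 and 2) and transgenic PLZF/RARA marrow at 12 h (4 RA and 2 untreated arrays, batch 1) were used, also with the background label WT.

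In APL, the retinoic acid receptor alpha is fused to another protein, most often PML, and myeloid cells halt at the promyelocyte, a granulocyte precursor filled with primary granules. The fusion protein holds retinoid target genes in a repressed state. RA releases corepressors from PML/RARA and leads to its degradation, and promyelocytes then resume granulocytic maturation. Leukaemias with the PLZF/RARA fusion respond poorly to RA in patients.

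One retinoid target, Cyp26a1, the hydroxylase that breaks down RA, has a classical response element close to its start. Promoter windows of 300 bases (RefSeq, build GRCm38.p6) were searched on both strands for direct repeats of the half-site AGGTCA or AGTTCA separated by 5, 2 or 1 bases. The repeat with a spacer of 5 was held by 13 of 32851 windows (0.0396%), that with 2 by 13 (0.0396%) and that with 1 by 27 (0.0822%). Of the 20 genes with the largest rises after RA, 17 were found in the table, and Cyp26a1 alone held such a repeat; so did Cyp26a1 alone among the 15 of 21 retinoid genes that were found. The window is shown because it carries the one match among these genes. It lies at chr19:37697558-37697857 on the plus strand, from upstream into the first bases of the transcript, and the capitals mark the repeat, which runs on the minus strand from 32 to 16 bases before the start.
Cyp26a1 promoter: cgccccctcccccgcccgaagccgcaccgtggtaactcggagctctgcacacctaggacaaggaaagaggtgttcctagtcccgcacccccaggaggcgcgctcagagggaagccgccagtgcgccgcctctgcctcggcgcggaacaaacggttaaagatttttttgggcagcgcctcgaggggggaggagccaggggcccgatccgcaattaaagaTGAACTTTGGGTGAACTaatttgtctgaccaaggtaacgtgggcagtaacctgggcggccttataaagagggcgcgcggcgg
A match is a description of letters and not evidence of binding.

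After 12 h of RA, Cyp26a1 and most measured genes of the superoxide-producing oxidase and of antibody and complement receptors rose, while most genes of DNA replication and ribosome production and some progenitor genes fell. The values are deposited log2 values, and changes are log2 differences, RA minus untreated, with the standard error (SE) of a limma fit to all 36 transgenic arrays. A gene was called at a Benjamini-Hochberg adjusted p under 0.05. Of 19938 genes, 4306 were called (21.6%), of which 1970 rose (9.88%) and 2336 fell (11.7%). Rises were more often large: 715 genes rose (3.59%) and 500 fell (2.51%) by at least 1.5-fold, and 266 rose (1.33%) and 80 fell (0.401%) by at least 2-fold. The split depended on scaling. After centring array medians 1737 genes rose and 2815 fell, and by at least 1.5-fold 660 rose and 589 fell. All RA arrays lay above all untreated arrays for 1309 genes (6.57%) and below them for 1368 (6.86%). The median change over all genes was -0.01. Counts of genes called for the 12 h change in the lists and families below stand beside these shares of all genes, 9.88% up and 11.7% down.

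Promyelocyte markers stood at a very high level in this marrow. Mpo and Elane, enzymes of the primary granules, lay at the 99.9th percentile of all genes by mean value, and Prss57, the lowest, at 96.9. Such a level was not particular to promyelocyte markers. The neutrophil genes Ngp and Ltf lay at 99.8 and 98.1, the megakaryocyte gene Ppbp at 98.7 and the mast cell gene Cpa3 at 98.1. Most other markers of other cells were lower. Markers of other cells were also present: the mean of 10 erythroid markers ran from 8.10 to 9.06 in untreated and from 8.27 to 10.22 in RA arrays, and 6 of them rose and none fell. That count was 1 without untreated replicate 2 or 4 or RA replicate 6, 2 without untreated replicate 1 or RA replicate 8, and 3 without RA replicate 3. The B cell markers had a mean of 6.59 to 6.96 in untreated and 6.77 to 7.82 in RA arrays, with 2 of 11 higher and 1 lower. None was higher without untreated replicate 2, 3 or 4 or RA replicate 6 or 8, and none lower without untreated replicate 4. Monocyte and macrophage markers showed 4 rises and no fall among 16, with 2 rises without untreated replicate 4, 8 with array weights, and 1 fall without untreated replicate 1 or RA replicate 5. Markers of stroma and endothelium showed 4 rises and no fall among 14, with 7 rises without untreated replicate 1 and 1 without untreated replicate 3 or 4. The 12 T and NK cell markers, none of which was called by limma, changed by -0.30 to 0.42, and 2 were called as rises without untreated replicate 1 and 1 without RA replicate 3. Of 9 megakaryocyte and platelet markers 1 rose, against 6 without untreated replicate 1 and 0 without untreated replicate 2 or 3. In bulk marrow, fewer cells of a type and less RNA per cell cannot be told apart.

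RA arrays 1 and 2 stood apart from the other RA arrays, on the side of the untreated ones. Their mean correlation was still higher with the other RA arrays (0.9937 and 0.9943) than with the untreated arrays (0.9901 and 0.9898). On the first principal component of the 12 arrays (51.8% of the variance), the untreated arrays lay between -31.5 and -24.5, RA arrays 1 and 2 at 1.0 and 3.0, and the other RA arrays between 16.5 and 22.3. RA array 1 was among the lowest pair of the RA arrays for 454 of the 715 rises of at least 1.5-fold, and RA array 2 for 414; both were for 298. For the 500 falls of that size, array 1 was among the highest pair for 410 and array 2 for 348, and both for 298. The next highest counts of any RA array were 150 rises and 79 falls. The genes that rose by at least 1.5-fold at 6 h (468, 2.35% of those tested) lay above the untreated mean by 0.79 in array 1 and 0.84 in array 2, against 1.07 or more in the others. The 353 genes (1.77%) that fell at 6 h lay at -0.43 and -0.48 in these arrays and between -0.89 and -0.74 in the others. With both left out, a setting chosen after seeing the data, 4574 genes were called, 4123 of them among the 4306, and 1493 by at least 1.5-fold. The codes in the titles form 2 runs, each holding both groups, with untreated replicates 3 and 4 and RA replicates 7 and 8 in the later one. On the second component these 4 arrays lay between -18.4 and -9.4, RA array 6 at -12.5 and the other arrays between 2.9 and 16.8. With the run as a block 4603 genes were called, 3976 of them among the 4306.

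**Figure D1:**
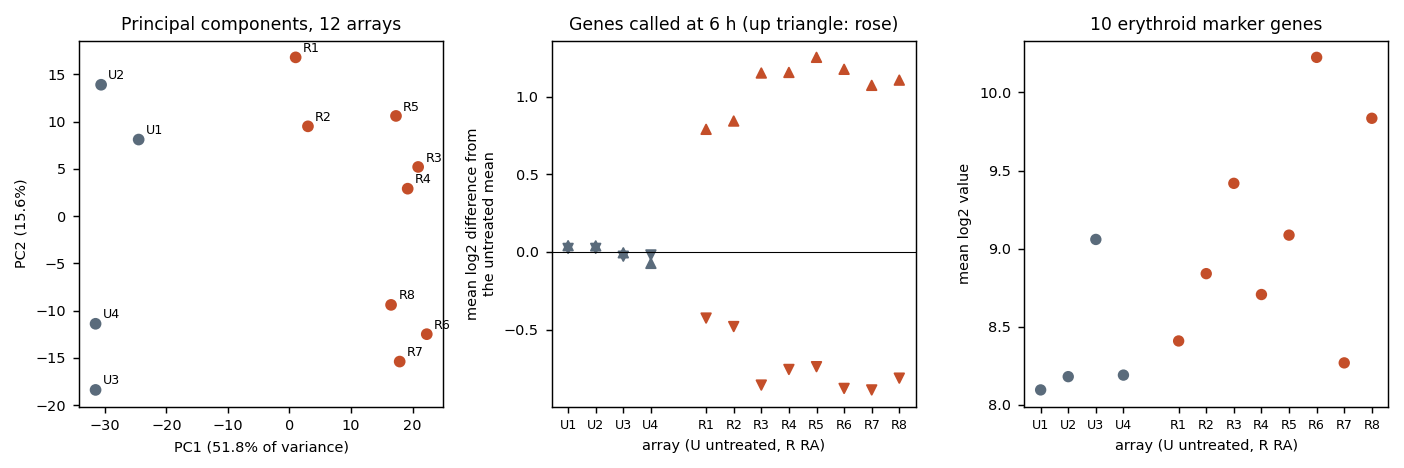
Left, the first 2 principal components of the 12 arrays; middle, the mean log2 difference from the untreated mean over genes that rose (up triangle) or fell (down triangle) at 6 h; right, the mean log2 value of 10 erythroid markers, each point being 1 array (grey untreated, red RA). RA arrays 1 and 2 lie at 1.0 and 3.0 on the first component, between the untreated arrays and the RA arrays at 16.5 or above, and RA arrays 6 and 8 have the highest erythroid means, 10.22 and 9.83.

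Cyp26a1 had the largest rise of all genes. Of 21 measured genes of retinoid metabolism and binding, 8 rose and 1 fell, with a median change of 0.11; 0 fell without untreated replicate 1 and 2 without RA replicate 8, and 3 after centring array medians. Cyp26a1 read 5.38, 5.32, 5.73 and 5.51 on the untreated arrays; the RA arrays ran from 7.54 through a median of 9.70 to 10.57. It was thus high on every RA array and lowest on RA arrays 1 and 2, at 7.59 and 7.54, with 9.44 the next value. The change was 3.90 (SE 0.53, adjusted p = 6.18e-07 by limma), and 4.5 without those arrays. Its untreated mean of 5.49 lay below the median of all genes, 6.96, and no detection call was used, so the change is given on the log2 scale of the deposited values and not as a fold. Dhrs3, which turns retinaldehyde back into retinol, read 9.23, 9.38, 9.25 and 9.11 untreated and from 10.92 through 11.60 to 11.80 with RA. Its rise of 2.27 (SE 0.19, adjusted p = 3.14e-11) showed no overlap between the groups. Smaller rises were those of Dhrs9 (1.00), a retinol dehydrogenase, Dgat1 (0.83), which esterifies retinol besides diglycerides, Rdh12 (0.79) and Cyp26b1 (0.32), the last with overlapping groups and not called under 12 alternatives (adjusted p between 0.0502 and 0.129 by limma). Retsat, which saturates retinol, fell by 0.38. The binding proteins Crabp1, Crabp2 and Rbp4 were not called, with changes of -0.10, -0.06 and -0.07.

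Among the nuclear receptors listed, 4 of 22 rose and 6 fell. Rarg, the retinoic acid receptor gamma, read 7.84, 7.79, 7.87 and 7.77 untreated and from 8.46 through 8.99 to 9.02 with RA, a rise of 1.04 (SE 0.13, adjusted p = 2.49e-07). The groups did not overlap. Rarb rose by 0.29, Rara changed by 0.21 (adjusted p = 0.095, not called), and Rxra, the shared dimer partner, fell by 0.46. Nr4a1, an orphan receptor induced early by many stimuli, showed the largest rise of the receptors at 1.93 (SE 0.19), and its relative Nr4a2 fell by 0.73. Thra, a thyroid hormone receptor, also fell by 0.73. A larger fall was that of Nr1h5, a nuclear receptor gene outside the list, at 1.74 (SE 0.26, adjusted p = 3.46e-06 by limma) without overlap.

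Several of the largest rises were in genes with no shared pathway. Suox, the mitochondrial sulfite oxidase, read 6.89, 6.86, 7.0 and 6.71 untreated and from 8.23 through 10.07 to 10.55 with RA, a rise of 2.92 (SE 0.33, adjusted p = 2.03e-08). RA arrays 1 and 2 were lowest at 8.23 and 8.58, still above every untreated array. Hic1, a transcriptional repressor, read 7.33, 7.04, 6.91 and 7.02 untreated and from 8.29 through 9.54 to 10.53 with RA. It rose by 2.39 (SE 0.35, adjusted p = 2.31e-06) with no overlap. Bhlhe40, another repressor, rose by 2.33 (SE 0.20). Slco4c1, an organic anion transporter, rose by 2.58, Adssl1, an adenylosuccinate synthase, by 2.49, Rap1gap2, which inactivates Rap, by 2.48, and Fzd3, a Wnt receptor, by 2.41. Inhibitory and activating surface receptors of myeloid cells were among them: Cd200r1 rose by 2.56, Cd300lb by 2.38 and Treml2 by 2.34.

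**Figure D2:**
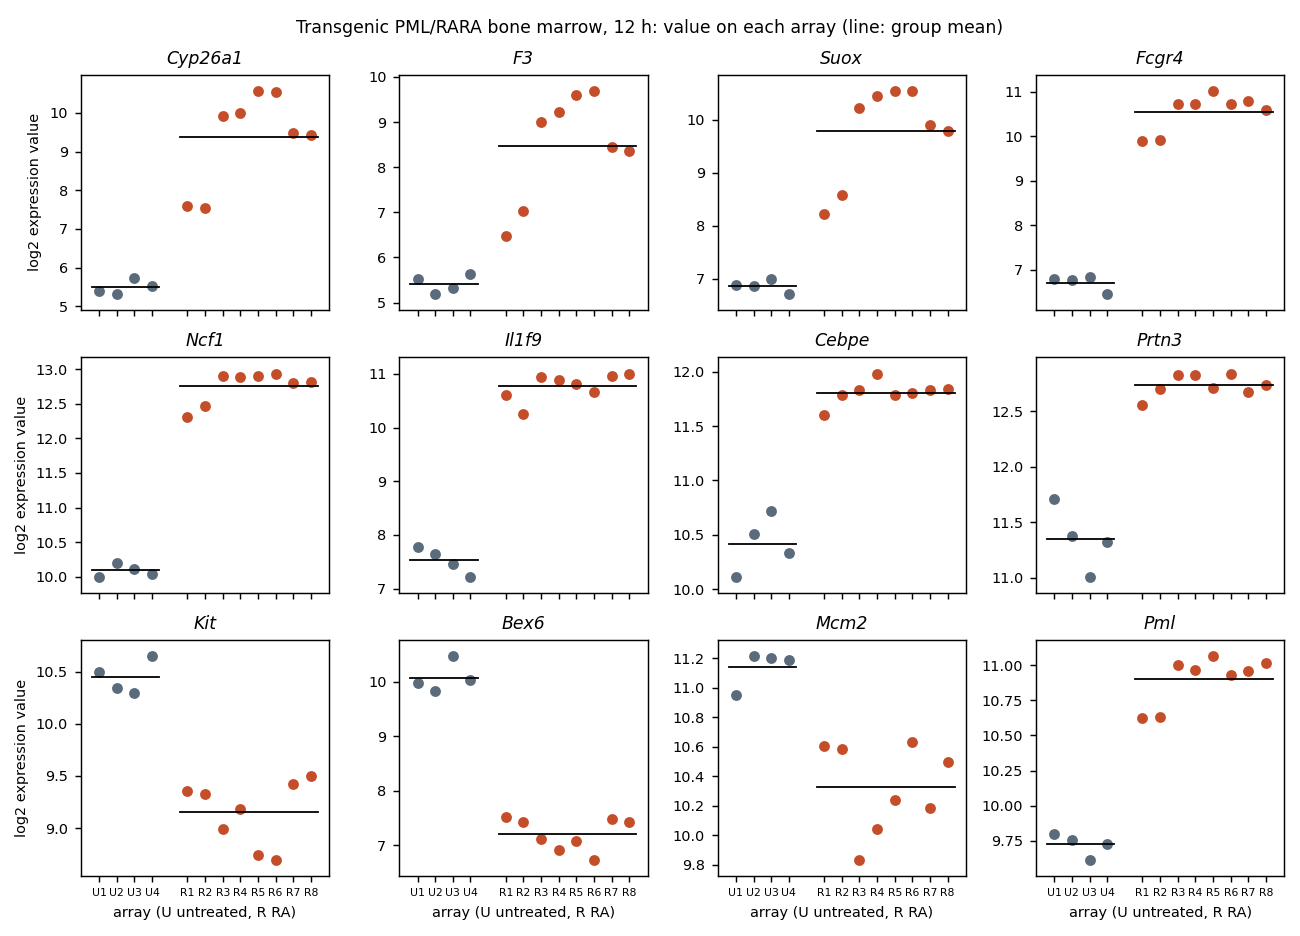
Log2 expression value of 12 genes on each array, untreated arrays U1 to U4 in grey and RA arrays R1 to R8 in red, with a black line at each group mean; the vertical axes differ between panels. For every gene shown the groups do not overlap, and for Cyp26a1, F3 and Suox arrays R1 and R2 lie between the untreated and the other RA arrays, while for Il1f9, Cebpe and Prtn3 they lie with or close to them.

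The oxidase that makes superoxide in neutrophils rose in most of its parts: 5 of 8 measured genes rose and 1 fell, with a median of 0.75. Ncf1, the p47 organiser subunit, read 10.00, 10.20, 10.12 and 10.04 untreated and from 12.30 through 12.86 to 12.94 with RA, a 6.34-fold rise (2.66, SE 0.17, adjusted p = 1.46e-13). Every RA array lay over 2 log2 units above every untreated one. The cytosolic subunit Ncf4 rose by 1.74, the membrane subunits Cybb and Cyba by 1.10 and 0.69, and the small GTPase Rac2 by 0.80. Hvcn1, the proton channel that supports the oxidase, fell by 0.61, and Rac1 and Rap1a were not called.

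Receptors for antibody and complement rose in 12 of 18 cases, with none down and a median of 0.78. Fcgr4, an activating receptor for IgG, read 6.78, 6.77, 6.83 and 6.45 untreated and from 9.89 through 10.72 to 11.02 with RA. The rise of 3.84 (SE 0.20, adjusted p = 2.01e-15) left no overlap, and untreated replicate 4 lay below the other untreated arrays. Fcgr3, a second activating receptor, rose by 2.03 and the inhibitory Fcgr2b by 0.70, while Fcgr1, the high-affinity receptor, changed by 0.02 and their shared signalling chain Fcer1g by 0.11, neither called. C5ar1, the receptor for C5a, rose by 1.72 and Cd14, a co-receptor for lipopolysaccharide, by 1.53. Itgb2, the beta chain of the leukocyte integrins, read 10.79, 10.39, 10.62 and 10.69 untreated and from 12.35 through 12.72 to 12.79 with RA. It rose by 2.03 (SE 0.12, adjusted p = 1.47e-14), and its partner Itgam by 1.18, while Itgax changed by 0.00 and was not called; Itgal, another partner, fell by 0.96.

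Mature neutrophil genes rose unevenly, 15 of 27 up and 2 down, median 0.48. Pram1, a myeloid adaptor protein, read 8.74, 8.99, 8.54 and 8.81 untreated and from 11.10 through 11.63 to 11.76 with RA, a rise of 2.77 (SE 0.14, adjusted p = 4.63e-16). Padi4, which citrullinates histones in neutrophil extracellular traps, read 7.42, 7.30, 7.49 and 7.65 untreated and from 9.41 through 10.33 to 10.57 with RA, a rise of 2.72 (SE 0.21, adjusted p = 5.15e-12). Neither gene overlapped between the groups. Secondary granule genes moved less: Camp, which encodes cathelicidin, rose by 0.78, Lcn2, lipocalin, by 0.39 and Ngp by 0.33, whereas Ltf, lactoferrin, changed by 0.07 (adjusted p = 0.857, not called).

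The list's falls were in Csf3r and Mmp8. Csf3r, the receptor for the growth factor G-CSF, read 11.71, 11.74, 11.52 and 11.58 untreated and from 10.66 through 10.79 to 11.13 with RA, so the groups did not overlap. It fell by 0.80 (SE 0.11, adjusted p = 6.18e-07). Mmp8, neutrophil collagenase, read 9.52, 9.72, 10.21 and 10.20 untreated and from 8.02 through 8.96 to 9.92 with RA. These groups overlapped, and Mmp8 fell by 0.84 (SE 0.30, adjusted p = 0.0374 by limma), a call lost under 10 of the alternatives, with adjusted p between 0.0522 and 0.131.

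Within the primary granule list, 5 of 18 genes rose and 4 fell (2 without untreated replicate 4), median 0.14. Prtn3, proteinase 3, read 11.71, 11.37, 11.01 and 11.32 untreated and from 12.56 through 12.73 to 12.84 with RA, a rise of 1.38 (SE 0.12, adjusted p = 1.45e-10) without overlap. Its close relatives Prss57 and Elane, also serine proteases of these granules, rose by 1.11 and 0.51. Mpo, myeloperoxidase, read 13.38, 13.37, 13.34 and 13.43 untreated and from 13.15 through 13.21 to 13.28 with RA. Mpo fell by 0.16 (SE 0.05, adjusted p = 0.0254 by limma), with no overlap. This small change had an adjusted p between 0.0522 and 0.096 under 4 alternatives, 2 of them leaving out untreated replicate 1 or 4. Ctsg, cathepsin G, fell by 0.23.

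Of 31 measured transcription factors of granulocyte maturation and of other blood lineages, 13 rose and 4 fell, median 0.18. The falls numbered 2 without RA replicate 3 or untreated replicate 3. Cebpe, the factor of late granulocyte maturation, read 10.11, 10.51, 10.72 and 10.34 untreated and from 11.60 through 11.82 to 11.98 with RA. It rose by 1.39 (SE 0.10, adjusted p = 4.58e-13), with RA arrays 1 and 2 at 11.60 and 11.79, at or near the level of the rest. Cebpa rose by 1.09, Spi1 (PU.1) by 0.68, Cebpb by 0.60 and Gfi1 by 0.55. Gata2, a factor of stem cells and mast cells, fell by 1.32 and Runx1 by 0.30. Myb and Irf8 were not called, at -0.13 and 0.18.

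Chemoattractant genes changed in a few members only, 6 of 29 up and none down (1 down without untreated replicate 1 or RA replicate 5). Ccl6, a myeloid chemokine of the mouse, read 8.79, 8.34, 8.63 and 8.34 untreated and from 11.16 through 11.90 to 12.21 with RA, a rise of 3.28 (SE 0.18, adjusted p = 5.59e-15). Ccrl2, an atypical receptor that binds chemerin, read 6.57, 6.45, 6.71 and 6.39 untreated and from 8.76 through 9.84 to 10.12 with RA, a rise of 3.11 (SE 0.24, adjusted p = 4.82e-12). Neither overlapped between groups, and RA arrays 1 and 2 were the lowest treated arrays for both. Ltb4r1, the leukotriene B4 receptor, rose by 2.45 and Ccl9 by 1.51. Cxcl1 and Cxcl2, the neutrophil-attracting chemokines, changed by -0.01 and -0.09 and were not called, and Cxcr2, their receptor, by 0.48 (adjusted p = 0.14).

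In interleukin 1 and Toll-like receptor signalling, 9 of 30 genes rose and 2 fell (1 without untreated replicate 1). Il1f9, the cytokine interleukin 36 gamma, read 7.77, 7.64, 7.46 and 7.22 untreated and from 10.25 through 10.85 to 11.01 with RA, a rise of 3.24 (SE 0.29, adjusted p = 1.37e-10) that left RA array 1, at 10.61, close to the others. Irak2, a kinase of these pathways, rose by 2.35, the inhibitor Nfkbia by 1.2 and the receptor antagonist Il1rn by 1.12. Il18rap, an interleukin 18 receptor chain, fell by 1.51. Il1b, Tnf and Myd88 were not called, with changes of 0.15, 0.25 and 0.12.

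Interferon response genes rose in 19 of 31 cases with no fall, median 0.53. The list mean was 9.0 and 9.20 on untreated arrays 1 and 2, 8.71 on both untreated arrays 3 and 4, and 9.42 to 9.56 on the RA arrays. Oasl2, an oligoadenylate synthetase-like protein, read 10.10, 10.31, 8.97 and 9.24 untreated and from 10.97 through 11.16 to 11.41 with RA. Untreated arrays 3 and 4 lay below arrays 1 and 2 by over 0.8, and the groups did not overlap. The change of Oasl2 was 1.52 (SE 0.28, adjusted p = 0.000111 by limma). Irf1, an interferon regulatory factor, read 8.59, 9.05, 9.05 and 8.69 untreated and from 9.76 through 10.26 to 10.52 with RA, a rise of 1.37 (SE 0.15, adjusted p = 8.77e-09). Rsad2 rose by 1.2 and Isg20 by 1.12, while Mx1, Ifit3 and Bst2 were not called, at -0.04, 0.19 and -0.07.

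Of 20 coagulation genes, 9 rose and 3 fell, beside 9.88% up and 11.7% down over all genes. Single members showed large changes in both directions. F3, tissue factor, the trigger of clotting, read 5.53, 5.19, 5.32 and 5.63 untreated and from 6.47 through 8.73 to 9.69 with RA. RA array 1 had the lowest treated value and array 2 the next, and 8.36 was the lowest of the rest. The rise was 3.06 (SE 0.42, adjusted p = 7.48e-07 by limma), and 3.64 without these 2 arrays. The untreated mean of F3, 5.42, lay below the median of all genes, 6.96, and no detection call was used. The urokinase Plau rose by 0.96, its receptor Plaur by 0.75, and the anticoagulant receptor Thbd by 0.75. F13a1, the factor XIII A chain that crosslinks fibrin, read 12.40, 12.67, 12.59 and 12.67 untreated and from 10.28 through 10.74 to 11.45 with RA. It fell by 1.78 (SE 0.23, adjusted p = 4.23e-07), with RA arrays 1 and 2 the highest treated ones. S100a10, which with Anxa2 forms a plasminogen receptor, fell by 0.51, and Anxa2 changed by -0.12 and was not called.

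Progenitor genes fell in part. In the stem and progenitor list, 7 of 24 fell and 1 rose (2 without RA replicate 3), median -0.01. Kit, the stem cell factor receptor, read 10.5, 10.35, 10.29 and 10.65 untreated and from 8.70 through 9.26 to 9.50 with RA, and it fell by 1.29 (SE 0.16, adjusted p = 1.13e-07). Cd34, a surface protein of progenitors, read 12.31, 12.32, 12.49 and 12.37 untreated and from 10.66 through 11.02 to 11.34 with RA. It fell by 1.38 (SE 0.14, adjusted p = 2.22e-09), and neither gene overlapped between groups. Adgrg1, an adhesion receptor of stem cells, fell by 1.56, and Cd93 was the list's rise at 1.36. Hoxa9, Meis1 and Flt3 were not called, at 0.04, 0.04 and -0.14. Of 14 eosinophil, basophil and mast cell markers, 2 rose and 2 fell, with a median of 0.07, and without untreated replicate 3 there was 1 call each way. Siglecf, a receptor of eosinophils, rose by 0.72 and Ms4a2, a chain of the mast cell IgE receptor, by 0.36. Hdc, histidine decarboxylase, fell by 1.02 and Cpa3, carboxypeptidase A3, by 0.73; the part of such cells in the falls of Kit and Gata2 was not tested.

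Most of the largest falls lay outside these lists. Bex6 read 9.98, 9.83, 10.47 and 10.04 untreated and from 6.74 through 7.27 to 7.53 with RA, and it fell by 2.86 (SE 0.19, adjusted p = 1.87e-13). RA arrays 1 and 2, at 7.53 and 7.43, lay at the upper end of the treated range together with array 7, far below the untreated arrays. Tespa1, an adaptor of antigen receptor signalling in thymocytes, read 10.63, 10.93, 11.27 and 11.13 untreated and from 8.02 through 8.31 to 8.85 with RA, and it fell by 2.58 (SE 0.21, adjusted p = 2.83e-11). Nt5e, the ecto-enzyme CD73 that makes adenosine, read 12.04, 12.32, 12.42 and 12.29 untreated and from 10.13 through 10.60 to 10.71 with RA. It fell by 1.75 (SE 0.17, adjusted p = 5.47e-10), again with no overlap. Slc24a3, a sodium, calcium and potassium exchanger, fell by 1.93. Kcnj2, a potassium channel, fell by 1.89, Clec4e, a lectin receptor for mycobacterial glycolipid, by 1.80 and Epha7, an ephrin receptor, by 1.79. Clec11a, a secreted growth factor of haematopoietic cells, fell by 1.58, Pank1, which starts coenzyme A synthesis, by 1.59, and St8sia4, a polysialyltransferase, by 1.53. Among glycosylation genes, B3gnt5 fell by 1.42 and Gcnt1 by 0.96, while Fut4 and B4galt6 rose by 1.68 and 1.66; in that list 4 of 15 rose and 6 fell.

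Genes of DNA replication fell almost throughout: 28 of 31 S phase genes fell and none rose, with a median of -0.64. The list mean lay between 9.87 and 10.05 on the untreated and between 9.04 and 9.69 on the RA arrays. Pole, the catalytic subunit of DNA polymerase epsilon, read 9.93, 10.11, 9.83 and 10.08 untreated and from 8.52 through 8.97 to 9.51 with RA. It fell by 1.03 (SE 0.12, adjusted p = 2.27e-08). Mcm2, a helicase subunit, read 10.95, 11.21, 11.20 and 11.19 untreated and from 9.84 through 10.37 to 10.63 with RA, and it fell by 0.81 (SE 0.11, adjusted p = 4.29e-07). Neither gene overlapped between the groups. Tk1, Ccne1 and E2f2 were the 3 members not called. Mitosis genes moved less, with 12 of 27 down and 1 up, the phosphatase Cdc25b at 0.75, and a median of -0.24. The falls numbered 7 without untreated replicate 2 or 3. Their list mean was 9.98 to 10.22 untreated and 9.56 to 10.12 with RA, so the groups overlapped.

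Among regulators of G1, the inhibitor Cdkn2d read 7.29, 7.53, 7.91 and 7.57 untreated and from 7.92 through 8.59 to 8.89 with RA. RA array 1 lay just above the highest untreated array, and the rise was 0.94 (SE 0.16, adjusted p = 2.24e-05). Cdkn1c rose by 0.92, Cdk4 fell by 0.44 and Cdk6 by 0.24, and Cdkn1b was not called at 0.10.

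Ribosome production fell as broadly, with 26 of 29 Myc and ribosome biogenesis genes down, none up and a median of -0.52. Myc itself read 12.33, 12.22, 12.07 and 12.26 untreated and from 11.49 through 11.68 to 12.05 with RA, and it fell by 0.49 (SE 0.10, adjusted p = 0.000256). RA arrays 1 and 2 were just under the lowest untreated array, and the others were further below. Utp20, a processing factor of the small subunit, fell by 0.77, Gnl3, nucleostemin, by 0.74 and Ncl, nucleolin, by 0.42. Gene families were grouped by symbol after the values were seen, so their counts test nothing. Over all genes 9.88% rose and 11.7% fell. Some families held more rises than falls: of 70 Rab GTPase genes 16 rose and 3 fell, and of 21 V-ATPase proton pump genes 8 rose and 1 fell. Of 77 mitochondrial ribosomal protein genes 27 fell and none rose, of 8 chaperonin subunits 7 fell, and of 30 aminoacyl-tRNA synthetases 17 fell and 1 rose. Nars2 and Yars2, synthetases of the mitochondrion, fell by 0.64 and 0.54. Cytosolic ribosomal protein genes showed 2 rises and 1 fall among 61. Of 10 Fanconi anaemia genes, which repair DNA crosslinks, 8 fell, and of 21 centromere protein genes 11 fell.

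**Figure D3:**
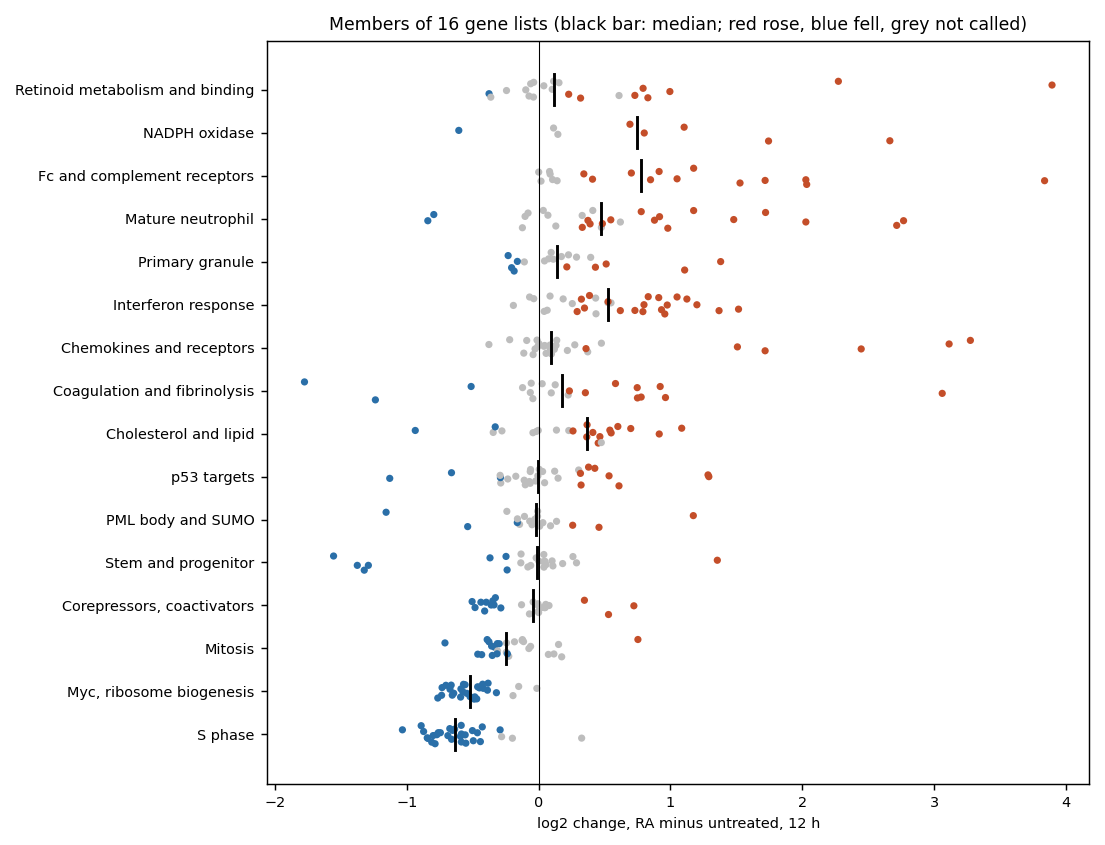
Log2 change at 12 h, RA minus untreated, of each measured member of 16 gene lists; red points rose and blue points fell at an adjusted p under 0.05, grey points were not called, and black bars are list medians. S phase and Myc lists lie left of 0 with medians of -0.64 and -0.52, Fc receptors and the oxidase lie right of it at 0.78 and 0.75, and the p53 and PML body lists are centred near 0.

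The series' title names p53 and PML. Of 29 measured p53 target genes, 8 rose and 3 fell, beside 9.88% up and 11.7% down over all genes. The list median was -0.01 beside -0.01 over all genes. After centring array medians the list held 6 rises and 5 falls. Trp53inp1, a stress-induced partner of p53, read 9.49, 9.98, 9.24 and 9.34 untreated and from 10.53 through 10.85 to 10.92 with RA, a rise of 1.28 (SE 0.16, adjusted p = 1.01e-07) without overlap. Ddit4, an inhibitor of mTOR, rose by 1.29, Btg2 by 0.61, Sesn2 by 0.53 and Mdm2, the ligase that degrades p53, by 0.38. Bbc3, Ccng1 and Zmat3 were not called, at 0.00, -0.01 and 0.05. The falls numbered 5 without RA replicate 1 and 6 without RA replicate 2, and without both arrays the list held 8 rises and 7 falls. Perp, a desmosomal p53 target, read 8.03, 7.98, 10.11 and 9.65 untreated and from 6.97 through 7.59 to 8.81 with RA. Untreated replicates 3 and 4 and RA replicates 7 and 8, whose title codes form a later run than those of the others, were the highest of their groups. Perp fell by 1.13 (SE 0.28, adjusted p = 0.00301 by limma). The change became -0.74 with the run as a block (adjusted p = 0.000931), and was not called without untreated replicate 3 (adjusted p = 0.0595).

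Of 20 genes of PML nuclear bodies and SUMO conjugation, 3 rose and 3 fell. Pml, the organiser of the bodies, read 9.80, 9.76, 9.62 and 9.73 untreated and from 10.62 through 10.96 to 11.06 with RA. The rise of 1.17 (SE 0.11, adjusted p = 5.50e-10) was 2.26-fold, with no overlap and the lowest treated values on RA arrays 1 and 2. Sp100, another resident of the bodies, rose by 0.46, and Daxx and Sumo2 were not called, at 0.09 and -0.11. Sae1, a subunit of the SUMO-activating enzyme, fell by 0.54. Zbtb16, which encodes PLZF, read 8.84, 9.23, 9.56 and 9.29 untreated and from 7.90 through 7.96 to 8.52 with RA, and it fell by 1.16 (SE 0.14, adjusted p = 1.56e-07).

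Of 25 corepressor, coactivator and chromatin silencing genes, 10 fell and 3 rose. The deacetylase Hdac2 fell by 0.50, the methyltransferase Dnmt1 by 0.48 and the Polycomb subunits Suz12, Eed and Ezh2 by 0.41, 0.35 and 0.34. Among coactivators, Ncoa3 rose by 0.72 and the acetyltransferases Kat2b by 0.53 and Ep300 by 0.35. Of the deacetylases, Hdac1 and Hdac3 were not called, at -0.01 and -0.07.

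Of 29 survival genes, 10 rose and 3 fell, beside 9.88% up and 11.7% down over all genes. Bcl2 read 10.23, 10.10, 10.29 and 10.32 untreated and from 9.31 through 9.41 to 9.73 with RA, and it fell by 0.76 (SE 0.09, adjusted p = 1.19e-07). Pim1, a survival kinase, read 10.51, 10.49, 11.00 and 10.76 untreated and from 11.46 through 12.07 to 12.26 with RA, a rise of 1.27 (SE 0.15, adjusted p = 4.45e-08), and its relative Pim2 fell by 0.76. Neither Bcl2 nor Pim1 overlapped between groups. Bak1, an effector of apoptosis, rose by 0.76, the ligand Tnfsf10 by 0.78 and Mcl1 by 0.42.

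Of 22 sterol and lipid genes, 12 rose and 2 fell, with a median of 0.37. Fdft1 and Lss, enzymes of cholesterol synthesis, rose by 0.60 and 0.54, the sterol sensor Insig1 by 0.70 and the lipid droplet protein Plin2 by 0.91. Abcg1, which exports cholesterol, fell by 0.94, and Abca1 was not called at -0.34. Cd36, a lipid scavenger receptor, rose by 1.09.

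The genes that varied most among the RA arrays included Cyp26a1, F3 and Suox, described above, and others that fell into a pair of patterns. Vsnl1, a neuronal calcium sensor, read 5.43, 5.25, 5.18 and 5.24 untreated; RA arrays 1 and 2 had 5.20 and 5.28, within the untreated range, and the other RA arrays 6.56 to 7.70. Lct, lactase, had 6.43 and 6.59 on RA arrays 1 and 2 and 8.02 or more on the others. Mras, a Ras-like GTPase, had 7.36 and 7.63 there and 8.94 or more on the others. The second pattern was that of red cell genes. Kel, a red cell surface protease, read 6.68, 6.91, 8.39 and 6.86 untreated and from 6.96 through 8.59 to 9.95 with RA, high on untreated array 3 and RA arrays 6 and 8. The groups overlapped at a change of 1.35 (SE 0.42, adjusted p = 0.0161), and without untreated replicate 1, 2 or 4 the adjusted p was 0.0702, 0.0576 and 0.065. Rhag, Cldn13 and Epb42, also genes of red cells, rose by 1.45, 1.29 and 1.09 and were highest on the same RA array 6, where the erythroid marker mean was 10.22. The call of Epb42 (adjusted p = 0.0313 by limma) was lost under 9 alternatives, with adjusted p between 0.0501 and 0.138. The part of erythroid cells in these rises was not tested.

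Compared with 6 h, few genes were called as different. The 6 h groups have untreated arrays of their own, and the 12 h change enters both differences below. The change at 12 h differed from that at 6 h for 46 genes (0.231%), higher for 32 (0.16%) and lower for 14 (0.0702%). Within batch 1 alone no gene passed in limma (smallest adjusted p 0.159, with 1253 genes or 6.3% at an unadjusted p under 0.05). That fit had fewer 6 h arrays, both RA and untreated. All 46 kept their sign in it, but its arrays are among those that gave the 46, so the sign is no separate support. Il1f9 differed most, rising by 0.78 (SE 0.30) at 6 h and 3.24 at 12 h, a difference of 2.46 (adjusted p = 0.00514; 2.03, adjusted p = 0.186, in batch 1). Slco4c1 and Hsd11b1, the enzyme that activates glucocorticoids, rose by 0.70 and 1.00 at 6 h and by 2.58 and 2.14 at 12 h. Clec4a2, an inhibitory lectin receptor, and Olfm4, a neutrophil granule protein, were lower with RA at 6 h, at -0.63 each, and higher at 12 h, at 0.85 and 0.75, though untreated array 1 reached the treated range for both. The rise of Olfm4 was not called without untreated replicate 3 (adjusted p = 0.0552 by limma). Its difference between times was lost without untreated replicate 2, 3 or 4 (adjusted p between 0.058 and 0.131 by limma). That of Clec4a2 was lost without untreated replicate 3 (0.0545).

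Among genes lower relative to 6 h, Tespa1 changed by -0.82 at 6 h and -2.58 at 12 h, a difference of -1.76 (adjusted p = 0.00564; -1.56, adjusted p = 0.201, in batch 1). Zbtb16 changed by -0.20 at 6 h (not called), a difference of -0.95 (adjusted p = 0.0351 by limma, but 0.277 in batch 1). That call was also lost on leaving out untreated replicate 2, 3 or 4 or any 1 of RA replicates 3 to 8. The adjusted p by limma was then between 0.0511 and 0.153. Id1, an inhibitor of differentiation factors, rose by 0.96 at 6 h. At 12 h it read 7.88, 8.36, 8.53 and 8.24 untreated and from 7.50 through 7.96 to 8.64 with RA, highest on RA arrays 1 and 2 at 8.46 and 8.64, and was not called (-0.26, adjusted p = 0.369 by limma; -0.45, adjusted p = 0.0401, without RA arrays 1 and 2). The difference of Id1 was -1.22 (adjusted p = 0.022 by limma). It was not called in batch 1 (0.159) or without untreated replicate 3 (0.114) or 4 (0.0604). Cyp26a1, Suox and Ncf1 showed 3.42, 3.08 and 2.45 at 6 h, and their differences of 0.47, -0.16 and 0.22 were not called.

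**Figure D4:**
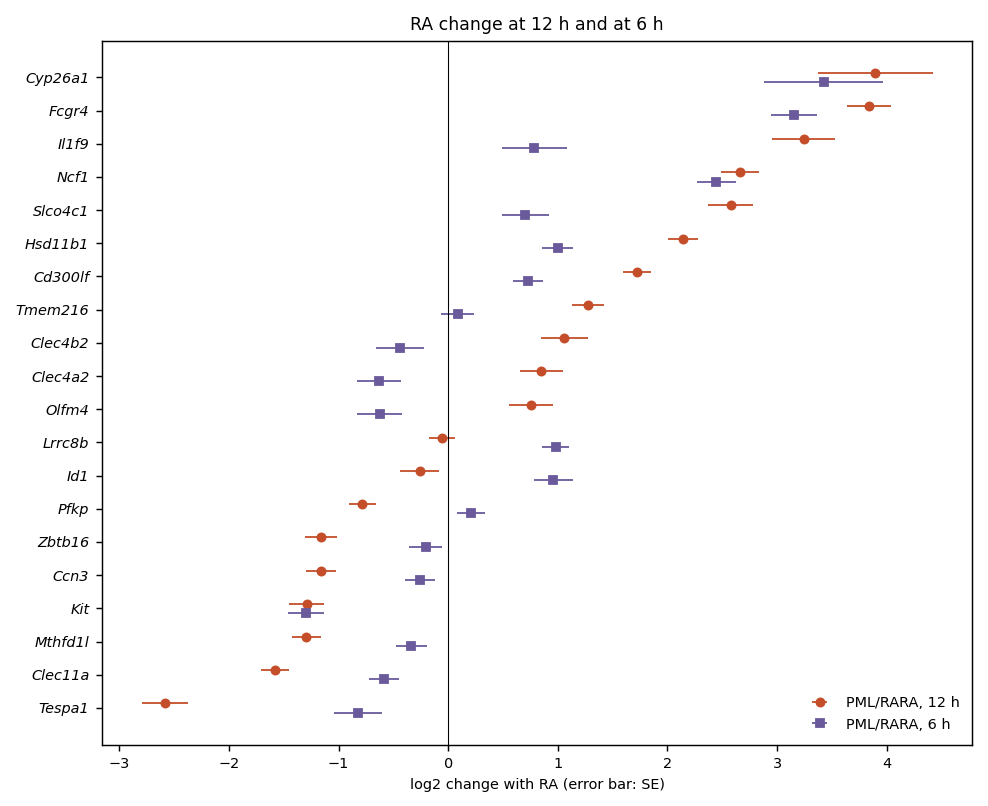
Log2 change with RA in transgenic PML/RARA marrow at 12 h (red circles) and at 6 h (purple squares), bars giving the SE, for the genes with the largest called differences between times and 4 others for scale (Cyp26a1, Fcgr4, Ncf1, Kit). Il1f9 and Slco4c1 lie furthest apart, and Kit lies at nearly the same place at both times.

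Compared with PLZF/RARA marrow at 12 h, the change differed for 585 genes (2.93%), higher in PML/RARA for 355 (1.78%) and lower for 230 (1.15%). F3 changed by -0.06 (SE 0.59) in PLZF/RARA, a difference of 3.13 (SE 0.72, adjusted p = 0.0121), and Suox by 0.35 (SE 0.46), a difference of 2.57 (adjusted p = 0.00849). Ccl6 rose by 0.92, Fcgr4 by 1.65 and Pram1 by 1.27 in PLZF/RARA, all called there, and their differences of 2.35, 2.19 and 1.5 were called as well (adjusted p = 2.74e-05, 0.000337 and 0.000244). These genes thus rose under both fusions, and more under PML/RARA. Nr4a1 changed by -0.05 in PLZF/RARA, a difference of 1.98, and Pml by 0.38, a difference of 0.80 (adjusted p = 0.0167). Slc6a9, a glycine transporter of red cell precursors, differed by 2.38 (adjusted p = 0.026 by limma, but 0.0593 and 0.0513 without untreated PML/RARA replicate 2 or 4), and its highest value was on RA array 6, as for Kel.

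For other genes no difference was called, or the change was lower in PML/RARA. Cyp26a1 rose by 3.97 (SE 0.74) in PLZF/RARA, a difference of -0.08 (SE 0.91), and Dhrs3 by 1.90, a difference of 0.37 (SE 0.33), neither called. Cd34, Bcl2 and Irf1 showed differences of 0.16, -0.01 and -0.22, not called. F13a1 changed by 0.17 in PLZF/RARA, a difference of -1.95 (adjusted p = 0.00484), Kit by -0.31, a difference of -0.98 (adjusted p = 0.0436, lost on leaving out untreated replicate 1, 2 or 4 or RA replicate 3, 4, 5 or 6, with adjusted p from 0.0539 to 0.0924), and Csf3r by 0.06, a difference of -0.85. The S phase list had 11 of 31 members lower and none higher in this difference, beside 1.15% lower and 1.78% higher over all genes. Its median change was -0.08 in PLZF/RARA. Trp53inp1 was higher in PML/RARA by 1.07 (adjusted p = 0.0235, but 0.0518 and 0.0534 without untreated replicate 3 or 4). The median change of the 31 interferon genes was 0.53 in PML/RARA and 1.01 in PLZF/RARA, and no difference among them was called by limma. Fmnl2, a formin, and Stra8, a germ cell gene induced by RA, rose in PLZF/RARA by 2.01 and 1.79. Neither was called in PML/RARA, at 0.09 and 0.01. Stra8 had means of 4.37 untreated and 4.38 with RA in PML/RARA, below the untreated median of all genes, 6.96. With only 2 untreated PLZF/RARA arrays the differences between the fusions have wide errors. Leaving out untreated PML/RARA replicate 2 lowered the 585 to 383, and leaving out both RA arrays 1 and 2 raised it to 987, of which 473 were higher and 514 lower.

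**Figure D5:**
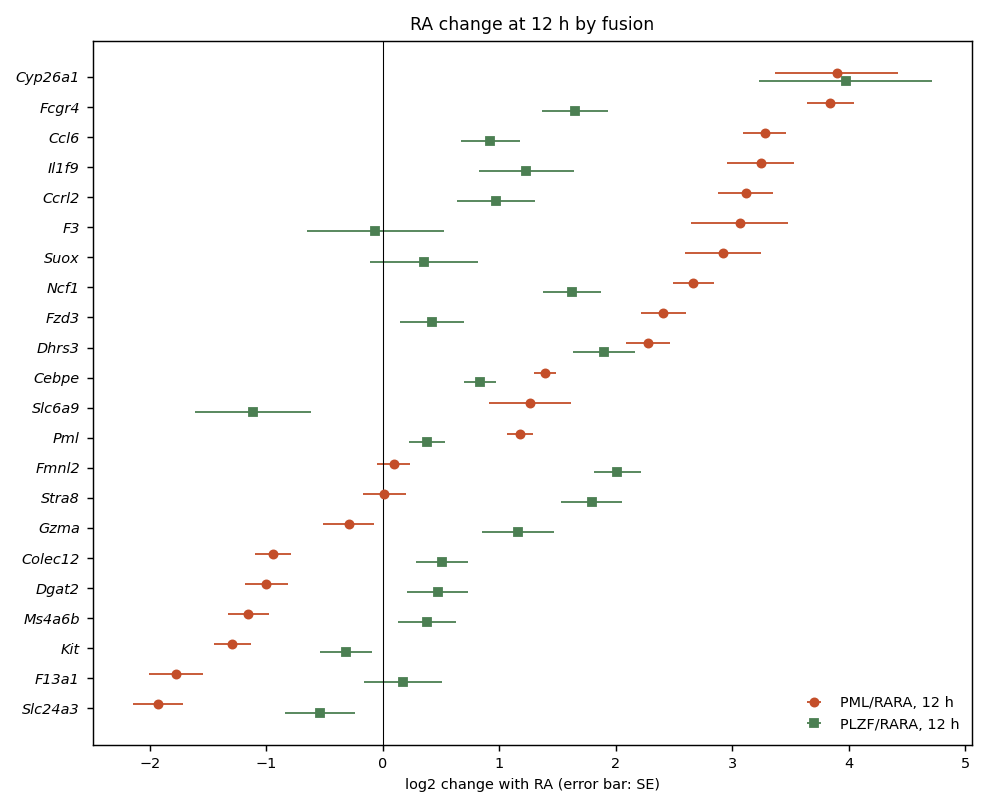
Log2 change with RA at 12 h in PML/RARA (red circles) and PLZF/RARA (green squares) marrow, bars giving the SE, for the genes with the largest called differences and 6 others for scale (Cyp26a1, Dhrs3, Ncf1, Pml, Kit, Cebpe). Cyp26a1 lies at 3.90 and 3.97, F3 at 3.06 and -0.06, and Fmnl2 at 0.09 and 2.01.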

How the data were processed

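Total RNA was hybridised to 1 array per sample. The authors deposited log2 values of 35556 probe sets; per the submitters' processing notes RMA and affy were used, with versions, background correction, probe set definition and any batch correction not given in the sources used here. Of the probe sets, 21789 have 1 gene symbol in the platform annotation, 1621 have several and 12146 are not listed. Where several probe sets shared a gene, the one brightest on average across the 72 arrays stood for it, which gave 19938 genes, with no filter on low signal. R 4.3.3 with limma 3.58.1 modelled the 36 transgenic arrays by group means plus a batch effect (27 residual degrees of freedom), followed by eBayes. Tests were two-sided and adjusted over all genes by Benjamini-Hochberg. The number of arrays limits the precision; the median residual SD was 0.149. In simulated data for this comparison with 19938 genes, 41.2% of 1.25-fold, 91.2% of 1.5-fold and 98.4% of 2-fold changes were recovered, with 5.1 false calls on average. Far fewer genes were changed in each simulated run than were called here. Residuals of whole arrays were shuffled among all 36, so the spread within the RA group was not kept. The recovery and the number of false calls therefore need not hold for the real comparison. Named genes are the 20 largest rises and falls, the 8 largest called differences per direction, the 10 most variable called genes and gene list members. Members, lists and rules were chosen with earlier results of these data known. Some list members were not analysed here. Array titles carry the same replicate number, so arrays were numbered in accession order. Alternatives are given in the closing section.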

Additional observations from a re-analysis of the deposited data

Results flagged for a closer look

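Outliers were looked for in 40 genes shown by array, in the 4 untreated and the 8 RA arrays (80 groups of values), by the gap of the highest or lowest array divided by the range of its group; chance flags about 1 group in 20. Such an array was found among the untreated ones for 3 genes. Fcgr4 was low on untreated replicate 4 (ratio 0.859), Mcm2 low on untreated replicate 1 (0.903) and Kel high on untreated replicate 3 (0.864).

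Among these genes, 4 differed between 12 h and 6 h by the test of the difference in limma. The change at 12 h was higher for Il1f9 (2.46) and lower for Tespa1 (-1.76), Id1 (-1.22) and Zbtb16 (-0.95). None of these was called within batch 1, and the calls of Id1 and Zbtb16 were also lost without untreated replicate 3 or 4.

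Between the fusions at 12 h, the change was higher in PML/RARA than in PLZF/RARA for F3 (3.13), Suox (2.57), Ccl6 (2.35), Fcgr4 (2.19), Ccrl2 (2.14), Il1f9 (2.01), Pram1 (1.5), Padi4 (1.31), Trp53inp1 (1.07), Itgb2 (0.82) and Pml (0.80). It was lower for F13a1 (-1.95), Tespa1 (-1.29), Kit (-0.98), Zbtb16 (-0.91), Csf3r (-0.85), Pole (-0.72) and Mcm2 (-0.71). The limma call of 8 of these differences was lost under at least 1 alternative. The highest adjusted p by limma was 0.0924 for Kit, 0.0902 for Tespa1 and 0.0534 for Trp53inp1, all without untreated replicate 4, and 0.0849 for Zbtb16 without untreated replicate 3. Without untreated replicate 2 it was 0.089 for Pole, 0.0774 for Padi4, 0.0586 for Mcm2 and 0.0565 for Itgb2. Leaving out RA replicate 3 or 4 also ended the calls of Kit, Tespa1, Pole, Zbtb16 and Padi4. Within batch 1 arrays alone, Tespa1 (adjusted p = 0.0676), Pole (0.0656), Padi4 (0.0515) and Zbtb16 (0.0508) were not called.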

How the results depend on the processing

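No paired analysis was possible because all titles carry the same replicate number; the runs of title codes, which hold both groups, were used as a block instead (4603 genes). Of the alternatives, those on the 12 h change kept its count within 1.5 times of 4306 (3548 to 4395 when leaving out 1 array, 5361 with array weights), and that of 1.5-fold changes within 1142 to 1493. The count of differences from 6 h moved from 46 to 0 in batch 1 arrays, 728 with array weights, 11 at an adjusted p under 0.01, 81 without RA replicates 1 and 2 together (chosen after seeing the data), and 16 to 95 when leaving out 1 array, with 95 without untreated replicate 1, 16 without untreated replicate 3 and 18 without untreated replicate 4. The count of differences from PLZF/RARA moved from 585 to 194 at an adjusted p under 0.01 and to 987 without RA replicates 1 and 2 together. When leaving out 1 array it was 383 to 774. The replicates left out were always PML/RARA arrays at 12 h. No 6 h or PLZF/RARA array was left out singly, so these ranges do not show how far the differences depend on such arrays. Quantile normalization moved the share of higher calls from 69.6% to 50.9% for the first difference and from 60.7% to 50.1% for the second. The cause was not tested in any of these. For the gene lists, the number of members up stayed within 1.5 times under the alternatives for 646 of 682 values and moved for 36, and the number down stayed for 638 of 682 and moved for 44. For 208 genes with 4571 values of the 12 h change, 4507 kept direction and side of the threshold, 47 lost the call, 17 gained it and 0 reversed. Beside those given above, calls were lost for Cdk6 (2 alternatives), Eed (2), Cpa3 (1), Ms4a2 (1) and Retsat (1), and gained for Tk1 (7), Abca1 (5), Rara (2), Cxcr2 (1) and Rac1 (1).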
